A study of Homo sapiens with 6 samples.

Results

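The genes described here are 40 genes that act in G2 phase and in mitosis, chosen by symbol from a list of cell cycle genes. The choice was made with earlier results of these data known. All 40 had a row among the 20345 protein-coding genes of the deposited table, and all 40 passed the filter on low counts that left 13551 genes in the test. They were measured by RNA-seq in SW1990 cells, an established human pancreatic cancer line. Control cells carried a non-targeting shRNA in the lentiviral vector pLKO.1, and the other cells carried an shRNA against LRRC8A in that vector. LRRC8A is a required subunit of the volume-regulated anion channel. Both groups were puromycin-selected stable lines grown in DMEM with serum, and each gave 3 libraries that the series calls biological replicates. The labels name 1 hairpin against LRRC8A and put all 6 libraries in 1 batch. Whether the libraries of a group came from separate transductions, the labels do not say, and the p-values measure the spread between these libraries.

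The libraries held 37052641 to 37565017 counts in controls and 37295187 to 42937612 counts in LRRC8A shRNA cells, with 15385 to 15593 genes detected in each. LRRC8A itself stood at 81.2, 73.8 and 71.7 CPM (a count over the TMM-scaled library total) in controls and at 40.8, 37.8 and 41.6 CPM in LRRC8A shRNA libraries, a log2 fold change of -0.92 (SE 0.06, edgeR adjusted p = 1.46e-08). Of 8 epithelial markers 0 were under 1 TPM, and their summed level was 14390 to 15220 TPM in controls and 11663 to 12827 TPM in LRRC8A shRNA libraries. KRT8 and KRT18 held most of that sum and were called lower, with log2 fold changes of -0.29 and -0.38 (edgeR adjusted p = 0.00523 and 3.38e-04), and the other 6 did not pass. Under 1 TPM were 7 of 8 fibroblast markers, with COL1A2 and DCN at 0, 7 of 8 leukocyte markers, with CD3E at 0, and 4 of 5 endothelial markers, with KDR at 0.

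Cells enter mitosis when CDK1, bound to a B-type cyclin, is switched on by CDC25 phosphatases, and they leave it when the anaphase-promoting complex marks cyclin B and securin for destruction. Between these steps the Aurora and Polo-like kinases, kinesin motors and spindle proteins build the spindle, and kinetochore and checkpoint proteins hold back anaphase until every chromosome is attached. Most of these genes are transcribed mainly from late S phase to mitosis. In quiescent and G1 cells the DREAM complex represses many of them, and in G2 the MuvB core of that complex, with B-MYB and FOXM1, activates them. MuvB binds a short promoter element, the cell cycle genes homology region, whose usual letters are TTTGAA or TTTAAA, and NF-Y binds CCAAT boxes near it.

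Promoter sequences are shown because this element links many genes of this class to MuvB in the textbook account. The RefSeq table of promoters (GRCh38.p14; 250 bases before to 50 after each start) matched 34 of the 40 genes. AURKA, BIRC5, FOXM1, TPX2, TTK and UBE2C were not matched. On either strand, TTTGAA occurred in 22 of the 34 windows (64.7%), against 15.2% of all 35116 windows of that length in the table. TTTAAA, which is its own reverse complement, occurred in 13 (38.2%, against 12.2%), and at least 1 of these words in 27 (79.4%, against 24.0%). CCAAT occurred in 25 (73.5%, against 34.6%), and a homology region word together with CCAAT in 21 (61.8%, against 9.27%). The E2F words TTTGGCG or TTTCGCG occurred in 4 windows (11.8%, against 3.19%). The 35116 windows were not limited to protein-coding genes or to 1 per gene, while each of the 34 genes gave 1 window. The shares thus compare unlike sets of windows. In HMMR, MKI67 and PTTG1, 1 pair of matches shared bases. A match describes the letters and is neither a site nor a cause. In 28 of the 34 windows the first 40 bases after the start lay within an annotated GENCODE 29 transcript of the same gene.

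The windows below carry the homology region word TTTGAA in capitals with 10 bases on each side. They are the gene of each role with the smallest p that holds this word, read on the strand on which it reads TTTGAA, and positions are counted from the RefSeq start with the base before it as -1.
ANLN: gaaattcaaaTTTGAAcggctgcaga
NUSAP1: gcgccagggaTTTGAAccgcgctgac
TOP2A: ccggggtttgTTTGAAtaaaccaatc
CDC20: acggttggatTTTGAAggagccaata
KIF4A: ccgggacggaTTTGAAacttggcggt
CDK1: gtataataaaTTTGAActgtgccaat
BUB1B: gaccgttaaaTTTGAAacttggcggc
NUF2: aggcggcaagTTTGAAaagtgatgac
The stretches lie at chr7:36389832-36389857 (ANLN), chr15:41332884-41332909 (NUSAP1), chr17:40418032-40418057 (TOP2A), chr1:43358906-43358931 (CDC20), chrX:70290060-70290085 (KIF4A), chr10:60778160-60778185 (CDK1), chr15:40161036-40161061 (BUB1B) and chr1:163321960-163321985 (NUF2). All are on the plus strand, and TOP2A is a gene of the minus strand. In the direction of the gene, the word began at -20 in ANLN, -34 in KIF4A, -23 in BUB1B and -65 in CDC20. It began farther upstream in TOP2A, at -151, and in CDK1, at -161. In NUSAP1 and NUF2 it lay after the start, at 14 and 17. The first 40 bases after the CDC20 start were not found in a GENCODE 29 transcript of that gene. For NUF2 the RefSeq start is base 163321954, while the gene starts at base 163266576 in GENCODE 29. These positions thus depend on the RefSeq start used. In TOP2A, CDC20 and CDK1, the letters ccaat follow the word within the stretch.

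Of the 4 genes that passed the test below, TACC3 and ANLN had a promoter in the table. The whole windows are printed for that reason, in the direction of the gene, with homology region words in capitals. ANLN (chr7:36389612-36389911, plus strand) held TTTGAA once on each strand, at -26 and -20, which together read TTCAAATTTGAA.
ANLN: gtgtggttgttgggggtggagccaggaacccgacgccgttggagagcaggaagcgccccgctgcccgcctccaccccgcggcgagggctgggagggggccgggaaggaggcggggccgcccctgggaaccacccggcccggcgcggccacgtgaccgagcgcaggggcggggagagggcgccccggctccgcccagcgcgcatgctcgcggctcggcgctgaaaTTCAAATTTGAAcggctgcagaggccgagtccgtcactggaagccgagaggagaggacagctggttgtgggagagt
TACC3 (chr4:1720381-1720680, plus strand) held 0 of the words searched. Its RefSeq start lies 859 bases upstream of the gene's start in GENCODE 29 and outside every GENCODE 29 transcript of TACC3, so this window may not be the promoter in use.
TACC3: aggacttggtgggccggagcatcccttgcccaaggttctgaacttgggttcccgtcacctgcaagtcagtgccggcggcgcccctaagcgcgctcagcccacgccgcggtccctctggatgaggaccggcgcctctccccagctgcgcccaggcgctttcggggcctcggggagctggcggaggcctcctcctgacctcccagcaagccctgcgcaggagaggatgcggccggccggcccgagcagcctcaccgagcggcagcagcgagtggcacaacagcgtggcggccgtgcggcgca

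Between the groups, 4 of the 40 genes rose in LRRC8A shRNA cells and 0 fell, against 1.77% of all tested genes called higher and 2.58% called lower (edgeR quasi-likelihood F-test, Benjamini-Hochberg adjusted p under 0.05). The 4 were UBE2C, TACC3, ANLN and TPX2, and each was 13.6% to 18.1% higher. The other 36 did not pass. At an unadjusted p under 0.05, 19 of the 40 were higher, against 8.65% of all tested genes, and 0 were lower. The median log2 fold change of the 40 was 0.12, a fold of 1.09, and their range was -0.05 to 0.24. Over all tested genes the median was 7.9e-04. The estimate was above 0 for 37 of the 40 (92.5%), against 50.2% of all tested genes. All 3 LRRC8A shRNA libraries lay above all 3 controls for 17 genes (42.5%), against 11.4% of all tested genes. All 3 lay below all controls for 0 of the 40, against 12.2%. In bulk RNA, a different share of cells in G2 and mitosis and a different amount of these mRNAs per cell cannot be told apart.

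**Figure D1:**
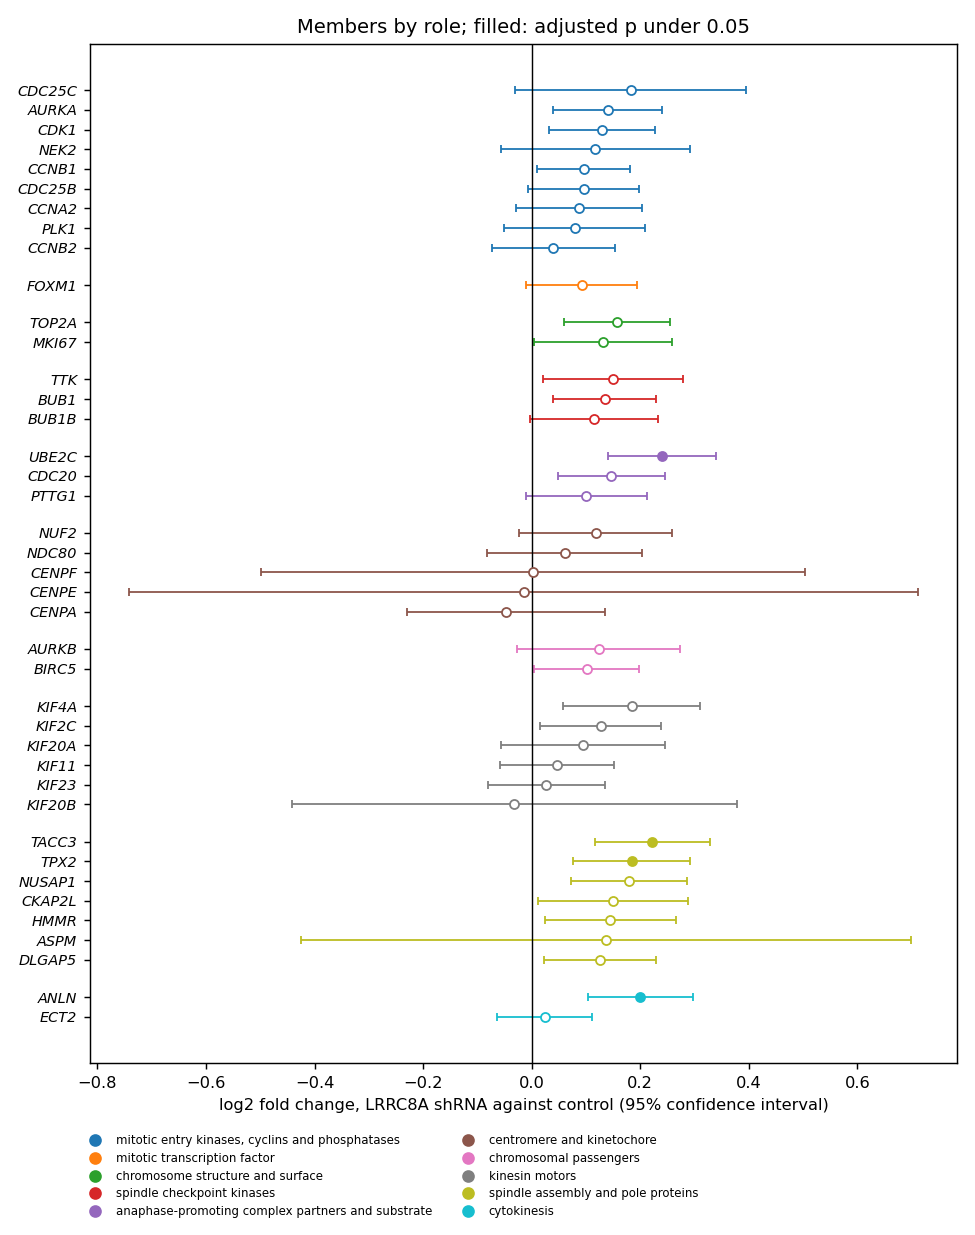
Log2 fold change (LRRC8A shRNA minus control, x axis) of each of the 40 genes, grouped by role, with points at the edgeR estimate (filled where the adjusted p was under 0.05) and bars for its 95% confidence interval. Of the 40 estimates 37 lie right of 0, those of UBE2C, TACC3, ANLN and TPX2 passed the test, and the intervals of CENPE, ASPM, CENPF and KIF20B are the widest.

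Scaled by library totals alone, 300 genes were higher and 263 lower across the table, where TMM scaling gave 240 higher and 350 lower. With those totals 6 of the 40 passed as higher, the 4 named above with NUSAP1 and TOP2A. Leaving out control replicate 1, control replicate 3 or LRRC8A shRNA replicate 3 left UBE2C as the 1 gene that passed. Across the table, these 3 fits called 100 (0.73%), 150 (1.10%) and 212 (1.55%) of the tested genes higher, against 240 (1.77%) with all libraries. The number of the 40 at an unadjusted p under 0.05 was 11, 12 and 11 in these 3 fits, against 19 with all libraries. That number was 22, 22 and 20 without control replicate 2, LRRC8A shRNA replicate 1 and LRRC8A shRNA replicate 2. The share of all tested genes at that p was not counted in the fits with a library left out. Without LRRC8A shRNA replicate 3 the median of the 40 was 0.084, with 33 estimates above 0.

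Partners and substrates of the anaphase-promoting complex were all higher in every LRRC8A shRNA library than in every control, and 1 of 3 passed. Across all tested genes, 11.4% were higher without overlap and 1.77% were called higher. UBE2C, the E2 enzyme that starts ubiquitin chains on substrates of this complex (chr20:45812576-45816957, plus strand, GRCh38), stood at 66.7, 68.4 and 63.8 CPM in controls and at 79.5, 77.1 and 78.4 CPM in LRRC8A shRNA libraries. The 3 LRRC8A shRNA values lay close together and well above the controls. Its level rose by 18.1% (95% confidence interval 10.2% to 26.6%), a log2 fold change of 0.24 (SE 0.05, edgeR adjusted p = 0.00599). UBE2C passed in 6 of 6 fits that left out 1 library, with an edgeR adjusted p up to 0.0411. CDC20, the co-activator that brings substrates to the complex in mitosis, had the highest level per length of the 40, 185 ± 10.2 TPM (SD, n = 3) in controls. It stood at 153, 169 and 169.5 CPM in controls and at 175, 186 and 182 CPM in LRRC8A shRNA libraries. These groups did not overlap either, but control replicates 2 and 3 lay near LRRC8A shRNA replicate 1, and the log2 fold change of 0.15 (SE 0.05) did not pass (edgeR adjusted p = 0.0908). PTTG1, which encodes securin, had a log2 fold change of 0.10 (SE 0.05). A CDC20 pseudogene, CDC20P1, shares 9.03% of the 50-base words of the CDC20 transcript, so some CDC20 reads could have been assigned to it.

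**Figure D2:**
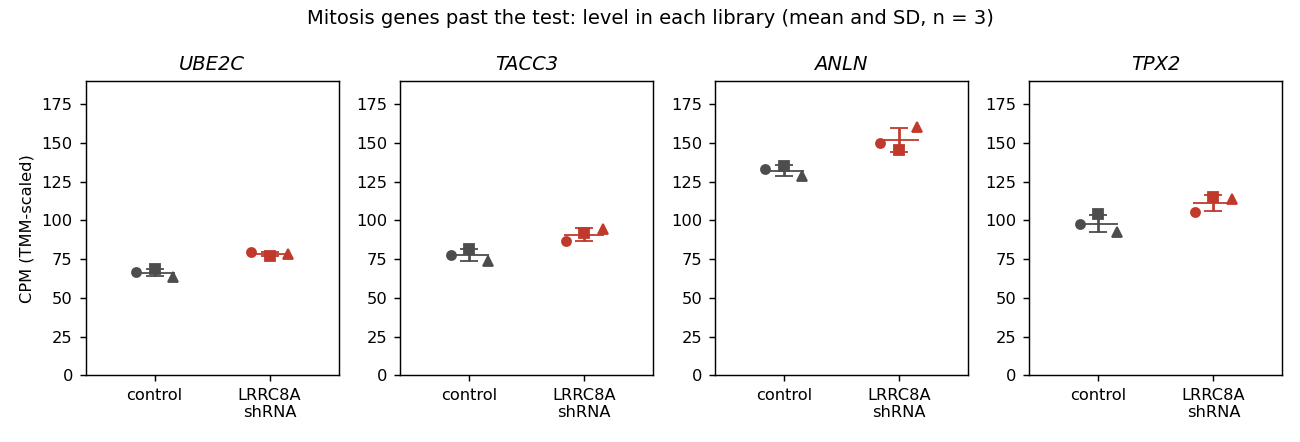
Level in CPM (y axis, TMM-scaled) of UBE2C, TACC3, ANLN and TPX2 in each of the 6 libraries, control against LRRC8A shRNA, with circles, squares and triangles for replicates 1, 2 and 3 and lines for the mean and SD. In all 4 panels the 3 LRRC8A shRNA points lie above the 3 control points, and the gap between the groups is narrowest in TPX2.

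Spindle assembly and pole proteins held 2 of the 4 genes that rose, with 7 of 7 estimates above 0 and a median of 0.15. Across all tested genes, 1.77% were called higher and 50.2% had estimates above 0. TACC3, which with clathrin and ch-TOG crosslinks the microtubules of kinetochore fibres (chr4:1721490-1745176, plus strand), stood at 77.9, 81.7 and 74.1 CPM in controls and at 86.5, 92.0 and 94.3 CPM in LRRC8A shRNA libraries. The groups did not overlap, and its log2 fold change was 0.22 (SE 0.05, edgeR adjusted p = 0.0149). TPX2, which activates Aurora A and nucleates spindle microtubules (chr20:31739271-31801805, plus strand), stood at 97.5, 104 and 92.6 CPM in controls and at 105, 115 and 114 CPM in LRRC8A shRNA libraries. Control replicate 2 came within a few percent of LRRC8A shRNA replicate 1, and the log2 fold change was 0.18 (SE 0.05, edgeR adjusted p = 0.0484). TACC3 passed in 3 of 6 such fits, and its edgeR adjusted p was 0.0752, 0.0854 and 0.0549 without control replicate 1, control replicate 3 and LRRC8A shRNA replicate 3. TPX2 passed in 2 of 6. Its edgeR adjusted p was 0.170, 0.186, 0.129 and 0.130 without control replicate 1, control replicate 3, LRRC8A shRNA replicate 2 and LRRC8A shRNA replicate 3.

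NUSAP1, which bundles spindle microtubules near chromatin, stood at 90.9, 99.4 and 87.5 CPM in controls and at 102, 104 and 108 CPM in LRRC8A shRNA libraries. All LRRC8A shRNA values were above all controls, yet the log2 fold change of 0.18 (SE 0.05) missed the threshold (edgeR adjusted p = 0.0528). An annotated gene on the same strand, AC087721.2, shares 68.0% of the 50-base words of the NUSAP1 transcript, so the NUSAP1 count is uncertain. The remaining spindle genes, HMMR, DLGAP5, CKAP2L and ASPM, had log2 fold changes of 0.13 to 0.15.

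Cytokinesis was represented by ANLN and ECT2, and these 2 differed in their estimates. ANLN encodes anillin, which links actin, myosin and septins in the contractile ring (chr7:36389806-36453791, plus strand). It stood at 133, 135 and 129 CPM in controls and at 150.0, 145 and 160.5 CPM in LRRC8A shRNA libraries. The groups were apart, with a rise of 14.9% (95% confidence interval 7.41% to 22.9%), a log2 fold change of 0.20 (SE 0.05, edgeR adjusted p = 0.0172). Its edgeR adjusted p was 0.0762, 0.0556 and 0.0756 with control replicate 1, 2 or 3 left out and 0.0687 with LRRC8A shRNA replicate 3 left out, so it passed in 2 of 6 such fits. ANLN overlaps KIAA0895 on the opposite strand, and the strand setting of the counting is not given in the sources used here. ECT2, the exchange factor that activates RhoA at the division plane, stood at 231, 227 and 236 CPM in controls and at 235, 228 and 244 CPM in LRRC8A shRNA libraries. Its groups overlapped almost wholly, with a log2 fold change of 0.024 (SE 0.04, edgeR adjusted p = 0.827) that became -0.0028 without LRRC8A shRNA replicate 3. The difference between ANLN and ECT2 was not tested.

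Among 9 kinases, cyclins and phosphatases of mitotic entry, 0 passed and 9 of 9 estimates were above 0, from 0.040 for CCNB2 to 0.18 for CDC25C. Across all tested genes, 1.77% were called higher and 2.58% lower, so a list of 9 could well hold 0. Estimates were above 0 for 50.2% of them. AURKA, the centrosomal Aurora kinase, had the smallest p of the 9. It stood at 91.2, 95.2 and 85.6 CPM in controls and at 99.4, 101 and 99.8 CPM in LRRC8A shRNA libraries. The 3 LRRC8A shRNA values were nearly equal and above all controls, with a log2 fold change of 0.14 (SE 0.05, edgeR adjusted p = 0.108). RAB3GAP2 shares 6.09% of the 50-base words of the AURKA transcript. CCNB1, cyclin B1, was the most abundant of the 9 per length, at 151 ± 2.41 TPM (SD, n = 3) in controls. It stood at 161, 164 and 165 CPM in controls and at 172, 178 and 174 CPM in LRRC8A shRNA libraries. The groups were apart by a small step, with a log2 fold change of 0.10 (SE 0.04, edgeR adjusted p = 0.206). CDK1, the kinase that CCNB1 activates, was also higher in every LRRC8A shRNA library than in every control, with a log2 fold change of 0.13 (SE 0.05, edgeR adjusted p = 0.127). The other 6, CCNA2, CCNB2, CDC25B, CDC25C, PLK1 and NEK2, overlapped between the groups, as did 10352 of all 13551 tested genes.

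FOXM1, the forkhead factor that activates many of these genes in G2, did not pass. It stood at 139, 149 and 140.4 CPM in controls and at 142, 154 and 159.8 CPM in LRRC8A shRNA libraries. LRRC8A shRNA replicate 1 lay among the controls, and the log2 fold change was 0.092 (SE 0.05, edgeR adjusted p = 0.334).

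TOP2A and MKI67 act on chromosomes as a whole, and neither passed. TOP2A, topoisomerase II alpha, which untangles sister chromatids, stood at 388, 381 and 361 CPM in controls and at 425, 393 and 443 CPM in LRRC8A shRNA libraries. The groups did not overlap, though control replicate 1 and LRRC8A shRNA replicate 2 were nearly level, and the log2 fold change was 0.16 (SE 0.05, edgeR adjusted p = 0.0631). MKI67, which encodes the proliferation marker Ki-67, a coat of mitotic chromosomes, stood at 378, 409 and 361 CPM in controls and at 402, 398 and 457 CPM in LRRC8A shRNA libraries. Control replicate 2 lay above LRRC8A shRNA replicates 1 and 2, and the log2 fold change was 0.13 (SE 0.06, edgeR adjusted p = 0.258).

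Checkpoint kinases, chromosomal passengers and kinesins, pooled here, had 10 of 11 estimates above 0 and 0 of 11 past the threshold. Across all tested genes, 50.2% of estimates were above 0. Of those genes 1.77% were called higher and 2.58% lower, so a list of 11 could well hold 0. BUB1, a checkpoint kinase at kinetochores, stood at 82.1, 85.9 and 81.4 CPM in controls and at 89.5, 91.6 and 92.6 CPM in LRRC8A shRNA libraries, with groups apart and a log2 fold change of 0.13 (SE 0.05, edgeR adjusted p = 0.105). BIRC5, which encodes survivin, stood at 89.7, 91.0 and 85.2 CPM in controls and at 96.3, 92.6 and 96.2 CPM in LRRC8A shRNA libraries. Its groups were just apart, with a log2 fold change of 0.10 (SE 0.05, edgeR adjusted p = 0.248). AURKB, the kinase of the passenger complex that BIRC5 belongs to, stood at 37.5, 39.9 and 37.8 CPM in controls and at 37.7, 41.0 and 46.8 CPM in LRRC8A shRNA libraries. Only LRRC8A shRNA replicate 3 lay well above the controls, replicate 1 was level with them, and the log2 fold change was 0.12 (SE 0.07, edgeR adjusted p = 0.386).

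KIF4A, a chromosome-bound kinesin of the central spindle, had the smallest p of the 6 kinesins. It stood at 46.9, 50.2 and 45.8 CPM in controls and at 51.6, 52.4 and 58.4 CPM in LRRC8A shRNA libraries. The groups did not overlap, with a log2 fold change of 0.18 (SE 0.06, edgeR adjusted p = 0.0937), and its retrocopy KIF4B shares 14.1% of its 50-base words. KIF23, a motor of the central spindle, was the kinesin with the highest level per length. It stood at 112, 113 and 111 CPM in controls and at 106, 113 and 123 CPM in LRRC8A shRNA libraries. Its LRRC8A shRNA values spread on both sides of the controls, with a log2 fold change of 0.027 (SE 0.05, edgeR adjusted p = 0.840) that became -0.032 without LRRC8A shRNA replicate 3.

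Centromere and kinetochore genes stood lowest among the roles, with a median log2 fold change of 0.0028. That median is the estimate of CENPF, whose spread between libraries was wide, and no test compared the roles. Of these 5 genes 0 passed and all 5 overlapped between the groups. Of all 13551 tested genes, 12961 did not pass and 10352 overlapped. NUF2, a subunit of the NDC80 complex that grips microtubules, stood at 30.7, 31.3 and 31.4 CPM in controls and at 31.2, 33.1 and 37.0 CPM in LRRC8A shRNA libraries. LRRC8A shRNA replicate 1 lay among the controls, and the log2 fold change was 0.12 (SE 0.07, edgeR adjusted p = 0.377). CENPA, the histone H3 variant of centromeres, stood at 17.1, 20.7 and 20.8 CPM in controls and at 18.5, 18.0 and 20.3 CPM in LRRC8A shRNA libraries. Its lowest value was a control, yet its log2 fold change of -0.047 (SE 0.09, edgeR adjusted p = 0.837) was the lowest of the 40. The other estimates below 0 were those of KIF20B, -0.032 (SE 0.16), and CENPE, -0.015 (SE 0.27).

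**Figure D3:**
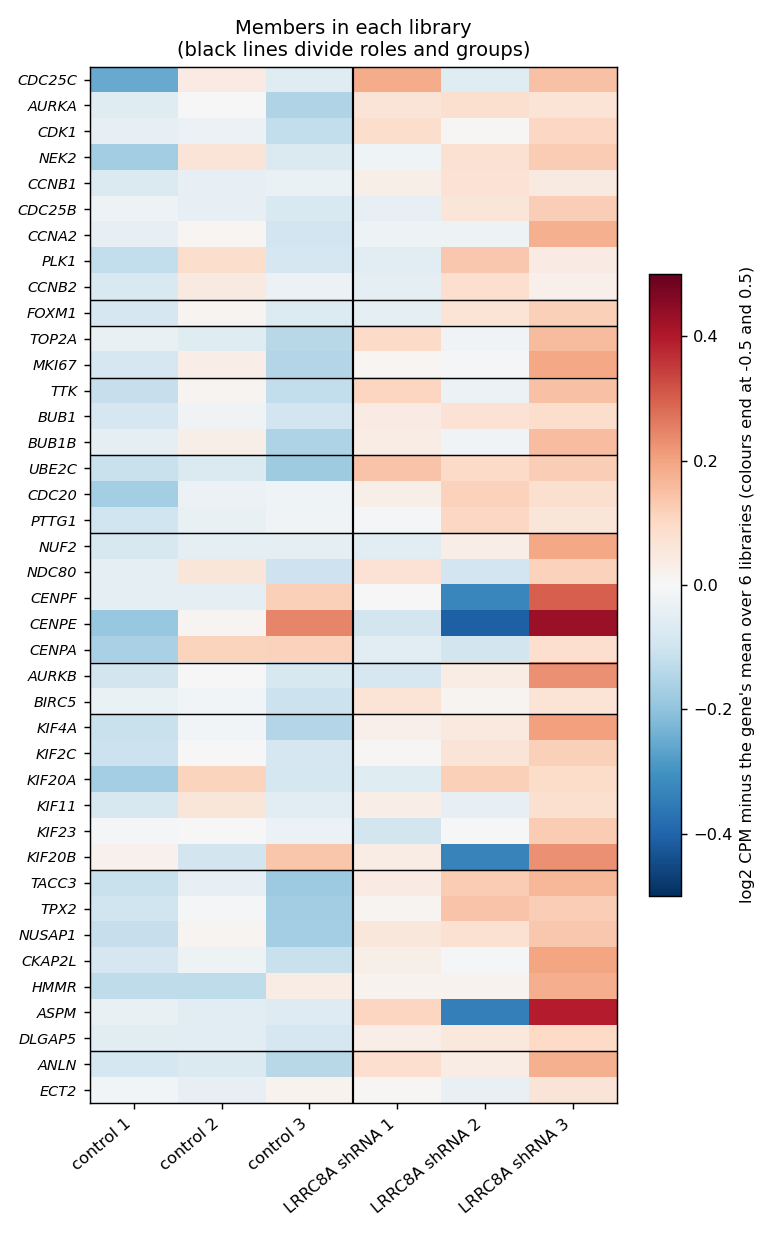
Deviation of log2 CPM from the gene's own mean over the 6 libraries (colour) for each of the 40 genes (rows, by role) in each library (columns). LRRC8A shRNA replicate 3 is above the mean for all 40 genes, control replicate 1 is above it for 1, and control replicate 2 for 17.

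By library, the 40 genes took 0.371%, 0.387% and 0.368% of the counts in control replicates 1 to 3 and 0.406%, 0.396% and 0.433% in LRRC8A shRNA replicates 1 to 3. The groups did not overlap, and LRRC8A shRNA replicate 3 stood highest. Measured as deviation from each gene's own mean log2 CPM, the median over the 40 was -0.08, -0.01 and -0.08 in controls and 0.03, 0.04 and 0.13 in LRRC8A shRNA libraries. Control replicate 2 thus lay nearer to LRRC8A shRNA replicates 1 and 2 than to the other controls. LRRC8A shRNA replicate 3 held the highest value of 28 of the 40 genes and was above the mean for 40, against 27 and 25 in LRRC8A shRNA replicates 1 and 2. The lowest value was in control replicate 1 for 14 genes and in control replicate 3 for 19.

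LRRC8A shRNA replicate 3 also differed in other measures. Mitochondrially encoded mRNAs took 6.53% of its counts, against 4.55% to 5.53% in the other 5 libraries. Over 2385 tested genes with transcripts longer than 6000 bases, the median deviation of log2 CPM was 0.04 there and -0.02 to 0.01 in the others. Over 1419 genes with transcripts shorter than 1500 bases it was -0.04 there and 0.00 to 0.03 in the others. The part of these features in the results on the 40 genes was not tested. With offsets for transcript length and GC content in the model, 7 of the 40 passed as higher and the median log2 fold change was 0.12. These offsets were an alternative chosen after seeing the data. Calls rose across the table too, with 289 of 13134 tested genes higher, against 240 of 13551 without the offsets.

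ASPM, CENPE, CENPF and KIF20B were set apart by their spread. Their SEs were 0.16 to 0.27 on the log2 scale, while the largest SE of the other 36 was 0.10, and the median over all tested genes was 0.07. They belong to the 5 of the 40 genes with transcripts over 6000 bases, the fifth being MKI67, whose SE was 0.06. ASPM, which focuses spindle poles (longest coding transcript 10887 bases), stood at 80.8, 79.5 and 79.2 CPM in controls and at 89.3, 65.3 and 109 CPM in LRRC8A shRNA libraries. The controls were nearly equal, and the LRRC8A shRNA libraries lay both above and below them. CENPF, a farnesylated kinetochore protein (10307 bases), stood at 123, 123 and 138 CPM in controls and at 127, 101 and 156 CPM in LRRC8A shRNA libraries. CENPE, the kinesin that moves chromosomes to the spindle equator (8612 bases), stood at 19.7, 22.7 and 26.6 CPM in controls and at 21.1, 16.9 and 30.3 CPM in LRRC8A shRNA libraries. KIF20B, a kinesin of late cytokinesis (6419 bases), stood at 45.7, 42.3 and 49.5 CPM in controls and at 46.1, 35.7 and 52.7 CPM in LRRC8A shRNA libraries. All 4 were lowest in LRRC8A shRNA replicate 2 and highest in LRRC8A shRNA replicate 3.

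The log2 fold change of ASPM was 0.14 (SE 0.21) and did not pass (edgeR adjusted p = 0.805). Without LRRC8A shRNA replicate 2 it was 0.31 and passed (edgeR adjusted p = 0.0338), and without replicate 3 it was -0.044. CENPF had a log2 fold change of 0.0028 (SE 0.18), which became -0.16 without LRRC8A shRNA replicate 3. CENPE and KIF20B became 0.16 and 0.11 without LRRC8A shRNA replicate 2. For these 4 genes the 3 libraries of each group do not fix a direction.

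**Figure D4:**
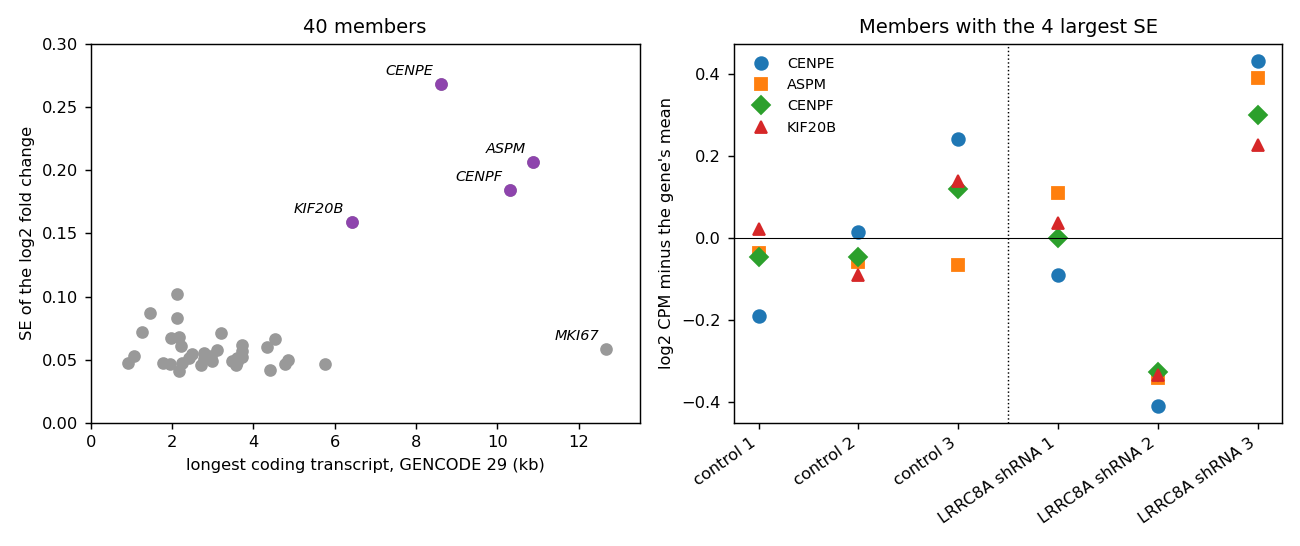
Left, SE of the log2 fold change (y axis) against the length of the longest coding transcript in kb (x axis) for the 40 genes. Right, log2 CPM minus the gene's own mean (y axis) in each library for CENPE, ASPM, CENPF and KIF20B, which have SEs of 0.16 to 0.27, a low point in LRRC8A shRNA replicate 2 and a high point in LRRC8A shRNA replicate 3.

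Other mitosis genes, a list of 113 that were all tested, were counted for comparison: 6 were called higher (5.31%, against 1.77% of all tested genes) and 0 lower. Estimates were above 0 for 88 (77.9%, against 50.2%), and the median log2 fold change was 0.07. Without overlap between the groups 31 were higher (27.4%, against 11.4%) and 3 lower (against 12.2%). At an unadjusted p under 0.05, 28 were higher (against 8.65% of all tested genes) and 4 lower. Of all 13551 tested genes, 1303 were lower at that p. SGO1, shugoshin, which protects cohesin at centromeres, stood at 20.1, 20.6 and 21.0 CPM in controls and at 25.7, 26.0 and 26.1 CPM in LRRC8A shRNA libraries. Both groups were tight and far apart, with a log2 fold change of 0.33 (SE 0.07, edgeR adjusted p = 0.00654), and SGO1 passed in 6 of 6 fits that left out 1 library. SGO1 overlaps SGO1-AS1 on the opposite strand. WEE1, the kinase that holds CDK1 inactive before mitosis, stood at 69.9, 68.6 and 69.1 CPM in controls and at 76.5, 82.1 and 82.9 CPM in LRRC8A shRNA libraries. Its groups were apart, with a log2 fold change of 0.22 (SE 0.05, edgeR adjusted p = 0.0125), and it passed in 4 of 6 such fits, with an edgeR adjusted p up to 0.0605 without control replicate 2.

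Also higher were SPAG5, the spindle protein astrin, by 0.20 on the log2 scale, PRC1, which bundles central spindle microtubules, by 0.19, CENPI, of the inner kinetochore, by 0.35, and NCAPH, a condensin I subunit, by 0.24. By edgeR the adjusted p-values were 0.0163, 0.0189, 0.0349 and 0.0424, and all 4 had groups that did not overlap. With single libraries left out they passed in 3, 2, 1 and 1 of 6 fits, with edgeR adjusted p-values up to 0.108, 0.128 and 0.134 without control replicate 1 and up to 0.149 without LRRC8A shRNA replicate 3. The list count was 1 without control replicate 1, 1 without control replicate 2 and 3 without LRRC8A shRNA replicate 3. The annotated gene AC068831.7 shares 63.9% of the 50-base words of PRC1, and AC005726.1 shares 10.9% of those of SPAG5, so these counts are uncertain.

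Within that list the roles were uneven, and no test compared them. Of 17 subunits and regulators of the anaphase-promoting complex, 10 had estimates above 0 and 7 below, with a median of 0.0089, and 0 passed. This role held all 4 genes of the list that were lower at an unadjusted p under 0.05 and all 3 that were lower without overlap, against 2 and 4 of its genes higher by the same measures. Of all 13551 tested genes, 1303 were lower at an unadjusted p under 0.05 and 12.2% were lower without overlap. By the same measures 8.65% and 11.4% of all tested genes were higher. Of 27 other centromere and kinetochore genes, 22 were above 0, with a median of 0.077, 6 higher without overlap and CENPI the 1 that passed. All 5 chromosomal passenger and shugoshin genes, all 8 condensin genes and 8 of 9 cohesin and separase genes were above 0, with medians of 0.18, 0.06 and 0.10. Estimates were above 0 for 50.2% of all tested genes.

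Subunits of MuvB, DREAM and the B-MYB complex, which control promoters of this class, showed 0 of 12 tested genes past the threshold (edgeR). Of all tested genes 1.77% were called higher and 2.58% lower, so a list of 12 could well hold 0. At an unadjusted p under 0.05, 3 of the 12 were higher (against 8.65% of all tested genes) and 0 lower. DESeq2 also called 0 of the 12. LIN52, a MuvB subunit, had the smallest p, at 11.5, 14.2 and 14.1 CPM in controls and 15.5, 18.1 and 15.5 CPM in LRRC8A shRNA libraries. The groups were apart, but the log2 fold change of 0.30 (SE 0.10) did not pass (edgeR adjusted p = 0.0955).

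G1/S and S phase genes lay nearer to 0. Of 44 tested, 1 rose (2.27%, against 1.77% of all tested genes) and 0 fell. Estimates were above 0 for 27 (61.4%, against 50.2%), and the median log2 fold change was 0.01. Without overlap between the groups 1 gene was higher (2.27%, against 11.4%) and 1 lower (against 12.2%), the latter being CDCA7, at a log2 fold change of -0.14 (SE 0.06, edgeR adjusted p = 0.202). The gene that rose was MCM6, a subunit of the replicative helicase, at 127, 144 and 129 CPM in controls and 159, 157 and 164 CPM in LRRC8A shRNA libraries. Its groups were apart, with a log2 fold change of 0.26 (SE 0.05, edgeR adjusted p = 0.00479). MCM6 passed in 5 of 6 fits that left out 1 library, the exception being without control replicate 1 (edgeR adjusted p = 0.0550). The difference between the G1/S genes and the 40 mitotic genes was not tested.

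**Figure D5:**
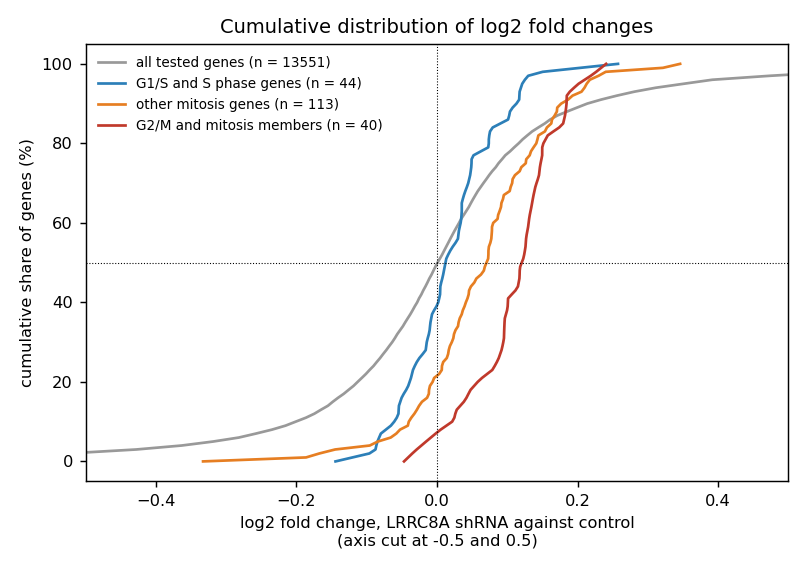
Cumulative share of genes in percent (y axis) at or below each log2 fold change (x axis, LRRC8A shRNA against control, drawn from -0.5 to 0.5) for the 40 G2/M and mitosis genes, the 113 other mitosis genes, the 44 G1/S and S phase genes and all 13551 tested genes. The curves cross 50% at 0.12, 0.07, 0.01 and 7.9e-04 in that order, and the curve of the 40 genes lies mostly right of 0.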

How the data were processed

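The deposited table held raw read counts per gene for each of the 6 libraries, with FPKM and TPM values that the authors had normalized for gene length and depth. The submitters' processing notes name fastp 0.23.2 with HISAT2 2.2.1 and also StringTie 2.2.3, as well as the builds GRCh38 and mm10 with no role. How reads were counted, and whether by strand, is not given in the sources used here. Positions, transcript lengths and shared 50-base words come from GENCODE 29 (GRCh38), since the table's coordinates differ from that annotation.

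After filterByExpr and TMM scaling, edgeR 4.0.16 (R 4.3.3) tested LRRC8A shRNA against control with its robust quasi-likelihood F-test, two-sided. Adjustment was by Benjamini-Hochberg over 13551 genes, and genes with an adjusted p under 0.05 passed. Each SE was taken as the absolute log2 fold change over the root of F. The script was tested on simulated data. Deviations are of log2 CPM (prior count 2). Deposited TPM served for levels per length. Alternatives were other scalings, DESeq2 1.42.0, no filter on low counts, a replicate block, each library left out, limma 3.58.1 with a trend on log2(FPKM + 1), log2(FPKM + 0.1) and log2(TPM + 1), and offsets for length and GC content.

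The 40 genes and the other lists were chosen with earlier results of these data known. Values are given for genes that passed, for the gene with the smallest p and that with the highest TPM in each role, and for estimates below 0. From each other list, up to 6 genes that passed are named, or the gene with the smallest p. CDK1, MKI67, PTTG1, ASPM, CENPF and CDCA7 were added after their values were seen.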

Additional observations from a re-analysis of the deposited data

How the results depend on the processing

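The count of 4 higher genes among the 40 was 4 to 6 under the other scalings, DESeq2 and no filter, and ran from 1 to 5 with 1 library left out. It was 1 with limma on log2(FPKM + 1), log2(FPKM + 0.1) and log2(TPM + 1), and 0 on log2(FPKM + 1) without a filter. In that last setting 19 of the 40 had an unadjusted p under 0.05, and the share of all genes at that p was not counted. With offsets for length and GC content it was 7, where 289 of 13134 tested genes were called higher across the table. The count of lower genes among the 40 was 0 and LRRC8A passed as lower under every alternative run. The median over the 40 lay between 0.084 and 0.15. A fold on the log2(value + pseudocount) scale understates the change of low genes. Genes called across the table, 590 in all, ran from 246 to 504 with 1 library left out. They were 182 with log2(FPKM + 1), 179 with log2(FPKM + 0.1), 16 with unfiltered FPKM and 168 with TPM. Other mitosis genes called, 6 in all, ran from 1 to 6 with 1 library left out, and were 2, 2, 0 and 2 in those settings and 10 with the offsets. G1/S genes called, 1 in all, ran from 0 to 1, and were 0 with unfiltered FPKM and 0 with TPM.

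Across all tested genes, deviations of equally numbered libraries correlated at 0.03, -0.09 and 0.0051, against -0.10 to 0.09 for libraries of unequal number. A correlation over all genes cannot show whether replicate numbers pair the libraries in some genes only, and that was not tested. With a replicate block, 5 of the 40 were higher (CDC20 joined) and 671 genes were called.

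Estimates that changed sign were all of genes that did not pass with all 6 libraries, and the cause was not tested. CENPE was 0.0032 with library totals alone and 0.0045 with limma on log2(FPKM + 1), with or without a filter, and ran from -0.27 to 0.16 with 1 library left out. CENPF was -0.016 with the replicate block, -0.0011 with TPM and -0.022 with the offsets, and ran from -0.16 to 0.15. With 1 library left out, CENPA ran from -0.13 to 0.0034, KIF20B from -0.16 to 0.11, KIF23 from -0.032 to 0.078, ECT2 from -0.0028 to 0.047 and ASPM from -0.044 to 0.31.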

Other observations

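Control replicate 2 stood apart from the other controls more in S phase genes than in mitotic ones. The median deviation of log2 CPM over the 44 G1/S and S phase genes was 0.10 in that library, the highest of the 6, against -0.05 and -0.07 in control replicates 1 and 3, and -0.02, -0.01 and 0.07 in LRRC8A shRNA replicates 1 to 3. Over the 40 G2/M and mitosis genes the same library stood at -0.01.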
